A study of Mus musculus with 24 samples.

Results

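Livers of tumour-bearing mice fed cholestyramine were compared with livers of control mice, gene by gene, to find what stood at the control level, what stayed changed and what went past control. The comparison took the 8 C26-CHO libraries and the 8 CT libraries, 16 of the 24 libraries of the series, and every gene with a mean deposited value of at least 10 over those 16. That left 14040 of the 22392 genes of the table. The lowest mean inside this limit was 10.012 (Snora34) and the highest outside it was 9.998 (Gm5640). All mice were of the CD2F1 strain, and whole liver RNA was sequenced. CT mice received a sham injection, and C26 and C26-CHO mice were transplanted with C26 cells, a mouse colon carcinoma line that causes cachexia, the wasting of body mass that accompanies a tumour. C26-CHO mice also received cholestyramine at 2% of the diet by weight, from day 1 until day 10 after the cells were injected. The 8 C26 mice without the drug are given only beside the other values. There was no group of control mice fed cholestyramine, so the tumour and the drug cannot be told apart in C26-CHO against CT. Sex, age and tumour weight were not given in the labels.

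Cholestyramine is a resin that stays in the gut and binds bile acids there, so that more of them leave with the faeces and fewer return to the liver. The liver makes bile acids from cholesterol, and the returning bile acids hold back their own synthesis, with Cyp7a1 as the rate-limiting step. When hepatocyte cholesterol runs low, the transcription factor SREBP2 switches on the genes of cholesterol synthesis and uptake. In tumour cachexia the liver mounts an acute phase response, in which cytokines of the IL-6 family act through STAT3 on genes of secreted plasma proteins.

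One C26-CHO library, C26-CHO 1, stood apart from the other 7. The main counts over all genes, and the medians of several lists, are given with and without it. The remaining lists are given with all 8 libraries. The first principal component of the 14040 genes, which carried 71.9% of the variance over the 16 libraries, placed C26-CHO 1 at 11.08, the other C26-CHO libraries between 47.23 and 73.51 and the CT libraries between -59.75 and -51.67. Reads of 30 acute phase genes made up 20.9% of the library of C26-CHO 1, 28.9% to 32% of the other C26-CHO libraries and 3.62% ± 0.213 (SD, n = 8) of the CT libraries. Library totals ran from 19.9 to 30.5 M reads. They averaged 25.8 ± 3.5 M (SD, n = 8) in C26-CHO and 22 ± 1.1 M (SD, n = 8) in CT (two-sided exact permutation test, p = 0.0129, adjusted p = 0.0155 over 6 library measures). The tissue carried its label: all 11 hepatocyte markers in the table were measured in every group, with summed values of 1660433 to 1920083 in CT and 1287051 to 1740392 in C26-CHO. That sum mixes opposite changes, as 4 markers rose and 4 fell in C26-CHO, with log2 differences from -2.28 to 3.16. It includes the acute phase gene Fgb, at 466216 to 793457 in C26-CHO. In bulk liver, fewer cells of a type and less RNA per cell cannot be told apart.

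Each liver was first set against the spread of the controls. A CT mouse had 65.1% to 81.7% of its genes inside the range of the other CT mice. In C26-CHO the share was 39% to 44.1% for 7 mice and 51.2% for C26-CHO 1. The median distance of a gene from the CT mean was 0.35 to 0.41 on the log2 scale in the 7 mice and 0.28 in C26-CHO 1. No C26-CHO liver reached the lowest CT liver on the first measure, and the C26-CHO livers other than C26-CHO 1 overlapped the untreated C26 livers, which had 36.4% to 42.4% of their genes inside the CT range.

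**Figure D1:**
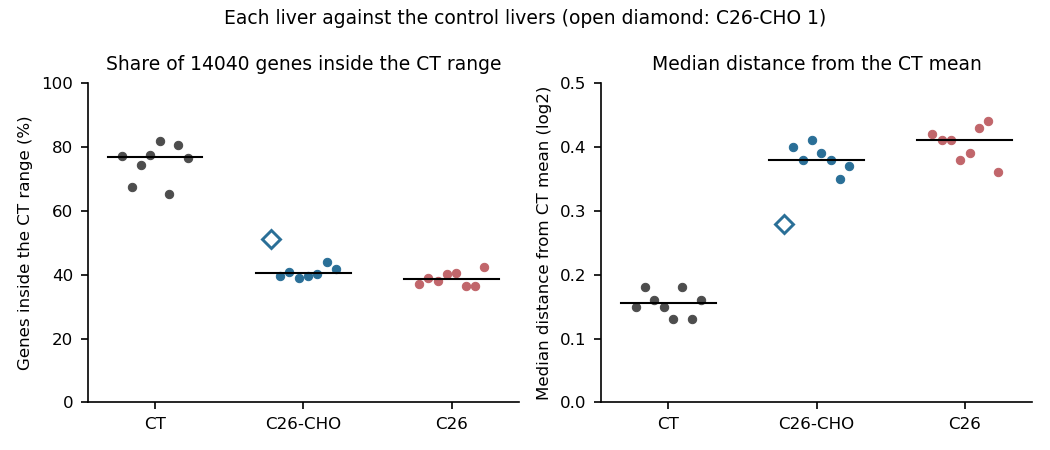
Each point is 1 liver and the line is the group median. Left, the percentage of the 14040 genes whose value lay inside the range of the CT mice (for a CT mouse, of the other CT mice). Right, the median over genes of the absolute log2 distance from the CT mean. The open diamond, C26-CHO 1, lies at 51.2% and 0.28, between the CT mice and the other 7 C26-CHO mice.

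Differences were tested with limma on log2(deposited value + 1), with Benjamini-Hochberg adjustment over the 14040 genes, and a gene was called where the adjusted p was under 0.05. Fold changes are on that scale, which understates changes of low genes. C26-CHO livers differed from CT livers in 8713 genes, 62.1% of those tested. Of these, 4308 were higher (30.7%) and 4405 lower (31.4%). At least 2-fold differences were called for 1052 higher genes (7.49%) and 944 lower genes (6.72%). In 1667 genes (11.9%) every C26-CHO liver lay above every CT liver, and in 1855 (13.2%) every one lay below. The median difference over all tested genes was -0.01 and the median absolute difference 0.34. Without C26-CHO 1, 8926 genes were called (63.6%), 4453 higher (31.7%) and 4473 lower (31.9%), and 8504 genes were called both with and without it. At least 2-fold differences were then called for 1128 higher and 1043 lower genes. Every remaining C26-CHO liver lay above every CT liver in 2121 genes and below in 2378, a condition that fewer livers meet more easily.

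A gene was counted at control level where the 95% confidence interval of its C26-CHO minus CT difference lay inside -0.5 to 0.5 on the log2 scale. By that measure 5952 genes (42.4%) stood at control level, and 5685 (40.5%) without C26-CHO 1. Control level is a statement of size, and 2175 of the 5952 genes were also called, with small differences. Another 1550 genes were neither called nor held within the limit, so their state was not resolved. The measure depends on precision: of the 4289 genes with a mean value under 100, 18% were at control level, against 56.1% of the 6999 genes from 100 up to 1000 and 45.7% of the 2752 genes of at least 1000.

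Untreated C26 livers differed from the same CT livers in 9282 genes (66.1%), and C26-CHO differed from C26 in 94 (0.67%). Because both tumour groups were set against the same 8 CT mice, an error in the CT mean moves both contrasts the same way. A gene was said to stay changed where it was called in both contrasts against CT with the same sign. There were 8111 such genes, 3998 higher and 4113 lower, and 8321 without C26-CHO 1. Among the 2418 genes called at least 2-fold in C26 against CT, 2369 stayed changed, 1878 of them still by at least 2-fold, and 49 were not called in C26-CHO against CT. None of the 2418 met the limit for control level. Over all tested genes 1170 were called in C26 but not in C26-CHO, these 49 among them, and 601 in C26-CHO but not in C26, and a call in 1 group only does not show that the groups differ. Without C26-CHO 1 these counts were 1056 and 605, and 2419 genes were called at least 2-fold in C26 against CT. Of those 2419 genes, 2385 stayed changed, 2007 of them still by at least 2-fold. Another 34 were not called in C26-CHO against CT, and 0 were at control level.

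Passing beyond control, that is being called on opposite sides of CT in the 2 tumour groups, was met by 1 gene, Glul, and by none without C26-CHO 1. Glul encodes glutamine synthetase, which joins ammonia to glutamate in the hepatocytes around the central vein. Its values were 11149 to 14528 in CT (median 12537), 11395 to 19199 in C26-CHO (median 14703) and 6827 to 13722 in C26 (median 10667). In C26-CHO 5 of 8 livers lay above every CT liver, and the other 3 fell within the CT range. The difference from CT was 0.27 (SE 0.113, adjusted p = 0.043) in C26-CHO and -0.26 (adjusted p = 0.0429) in C26, and C26-CHO exceeded C26 by 0.53 (adjusted p = 0.025). Its interval against CT also lay inside the limit for control level, so Glul met both descriptions. Without C26-CHO 1 the difference from CT was 0.24 (adjusted p = 0.0704). The call was also lost without C26-CHO 2, 4, 7 or 8 and without CT 3, 5, 6, 7 or 8, with adjusted p from 0.052 to 0.0999. Glns-ps1, a pseudogene of glutamine synthetase that may share reads with Glul, had values of 136 to 258 in C26-CHO and 153 to 206 in CT and a difference of 0.10 (adjusted p = 0.467). The count of genes past control moved with single libraries: it was 3 without C26-CHO 3 and 0 without C26-CHO 1, 2, 7 or 8 or any of CT 1 to 7.

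A wider set held 14 genes that were called in C26-CHO against both CT and C26 in the same direction while C26 did not differ from CT by the test. Of these 11 were higher and 3 lower, and without C26-CHO 1 the set was 9, with 6 higher and 3 lower. It was as small as 4 without C26-CHO 7, 6 without C26-CHO 6 and 7 without C26-CHO 8, and as large as 39 without C26-CHO 3. Of the 11 higher genes 5 were on the list of cholesterol synthesis used further on, the enzyme genes Idi1, Fdft1, Cyp51, Msmo1 and Hsd17b7. That list held 26 of the 14040 tested genes and was chosen with earlier results of these data known. Tmem97 encodes a membrane protein regulated by sterols, and Acsl3 an enzyme that attaches coenzyme A to fatty acids. Cyp51, which removes a methyl group from lanosterol, had values of 1418 to 2610 in CT (median 1839) and 2554 to 6294 in C26-CHO (median 3010), with 6 of 8 livers above every CT liver. Its difference was 0.82 (SE 0.171, adjusted p = 0.000175), and 0.69 without C26-CHO 1, beside -0.01 in C26. Msmo1, the next methyl oxidase, was 1954 to 2871 in CT and 3325 to 7448 in C26-CHO. Here the groups did not overlap, and the difference was 0.78 (SE 0.154, adjusted p = 0.000102). Idi1 rose by 0.72 (adjusted p = 0.00321), with 2 of 8 livers above every CT liver. Hsd17b7 rose by 0.46 (adjusted p = 0.00123), Acsl3 by 0.41 (adjusted p = 0.00487) and Tmem97 by 0.35 (adjusted p = 0.000743). Fdft1, squalene synthase, rose by 0.38 (adjusted p = 0.0406), a call lost without C26-CHO 1 (0.25, adjusted p = 0.1). Idi1 and Tmem97 left the set without C26-CHO 1, since their calls against C26 were lost (adjusted p = 0.0547 and 0.0822). For Fdft1, leaving out C26-CHO 6 or 7 or CT 2, 6 or 8 ended the call too (adjusted p from 0.0511 to 0.0911).

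The remaining named genes of that set had other roles. Oat, ornithine aminotransferase, lies with Glul in the pericentral zone. Its values were 3777 to 6665 in CT (median 5581) and 7313 to 11585 in C26-CHO (median 8363), so that all 8 C26-CHO livers lay above every CT liver. The difference was 0.80 (SE 0.128, adjusted p = 6.15e-06), and 0.82 without C26-CHO 1, beside 0.10 in C26. Fbp1, the gluconeogenic enzyme fructose bisphosphatase, rose by 0.27 (adjusted p = 0.00275), with 6 of 8 livers above the CT range. Slc22a26, an organic anion transporter, was low, at 0 to 28.4 in CT and 5.05 to 58.2 in C26-CHO. Its difference of 1.56 (adjusted p = 0.0304) was no longer called without C26-CHO 1, 5 or 8 or CT 1, 6 or 8 (adjusted p from 0.0526 to 0.0793). Among the lower genes, the non-coding RNA Zfas1 fell by 0.60 (adjusted p = 9.94e-06), with all 8 livers below every CT liver, and the reductase gene Cyb5r1 fell by 0.36 (adjusted p = 0.00194).

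A further 5 genes already changed in C26 stood further from control in C26-CHO and differed between the tumour groups. Srebf2, which encodes SREBP2 itself, had values of 789 to 958 in CT (median 878), 943 to 1295 in C26 (median 1138) and 1299 to 1801 in C26-CHO (median 1437). The C26-CHO livers overlapped neither group. The difference from CT was 0.75 (SE 0.0699, adjusted p = 9.66e-10) in C26-CHO and 0.36 in C26, and the 2 tumour groups differed by 0.39 (adjusted p = 0.0129). Hacd3, a dehydratase of fatty acid elongation, was 2523 to 3097 in CT and 3774 to 8470 in C26-CHO, a difference of 1.05 (adjusted p = 3.25e-07). Fam25c, whose function is not established, differed by 3.05 from CT, and Dnaic1, a dynein chain of motile cilia, by 2.20. The last of these genes was Gm15638. Without C26-CHO 1 the set held 8 genes, 4 of them shared with the set of all libraries, and Fam25c left it (adjusted p = 0.096 against C26).

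**Figure D2:**
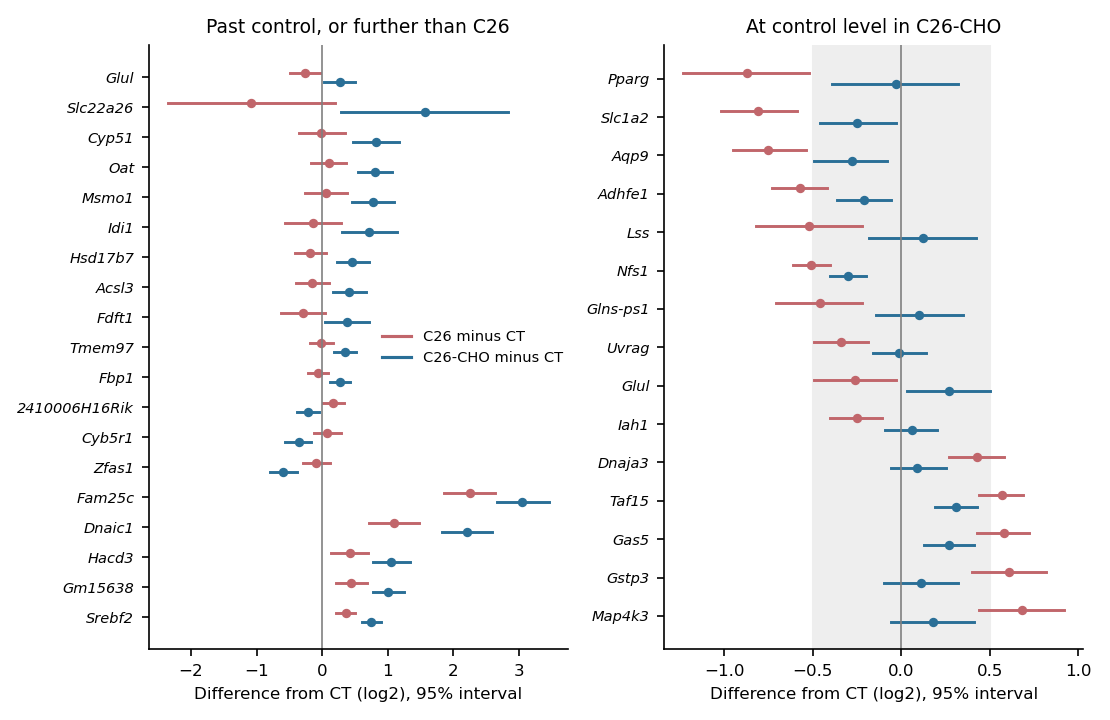
Differences from CT with 95% confidence intervals on the log2 scale for C26 (red) and C26-CHO (blue), for genes with a symbol. Left, genes called past control in C26-CHO, or further from it than C26, where the blue interval of Glul only just clears 0 and those of Oat, Msmo1 and Cyp51 lie well above it. Right, genes at control level in C26-CHO and changed in C26, with the limit of 0.5 shaded.

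Gene lists are counted over their members that passed the filter on low values. That was every member of the lists described here, except for 12 of 14 genes of bile acid transport, 9 of 10 of bile acid sensing, 30 of 31 of complement and coagulation, 16 of 18 of the ATF4 list, 22 of 23 P450 genes, 20 of 23 sex-biased genes, 17 of 18 clock genes, 15 of 16 pericentral genes and the marker lists named at the end.

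Of the 26 genes of cholesterol synthesis and uptake, 12 rose, 8 fell and 2 were at control level in C26-CHO. Their median difference was 0.36, and 0.22 without C26-CHO 1, where 11 rose and 8 fell. All tested genes had a median of -0.01. In C26 the same 26 genes had a median of -0.36, with 3 higher and 12 lower. The enzymes were split around control. Sqle, squalene epoxidase, was 553 to 1234 in CT and 3109 to 4296 in C26-CHO, with no overlap and a difference of 2.21 (SE 0.148, adjusted p = 1.93e-12). Hmgcs1, which makes HMG-CoA, was 1554 to 3605 in CT (median 2155) and 3839 to 13282 in C26-CHO (median 4954), again with no overlap. Its difference was 1.30 (SE 0.218, adjusted p = 1.2e-05), and 1.12 without C26-CHO 1, whose 13282 was the highest value. Neither Sqle nor Hmgcs1 was called in C26-CHO against C26, although 12 of the 26 list genes were called higher there and 0 lower.

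Other members of the list stood on the lower side of control. Insig1, which retains SREBP in the endoplasmic reticulum, fell by 1.07 (adjusted p = 1.8e-05), Tm7sf2 by 1.01 (adjusted p = 5.08e-05) and Sc5d by 0.97 (adjusted p = 2.35e-05). Lss, lanosterol synthase, was 761 to 1261 in CT and 839 to 1777 in C26-CHO, a difference of 0.12 (adjusted p = 0.501) that was at control level. The mean over the list, relative to CT, was 0.99 in C26-CHO 1, -0.10 to 0.49 in the other 7 mice, -0.91 to 0.02 in C26 and -0.30 to 0.24 in CT. Thus the list means of C26-CHO 1 and of C26-CHO 7, at 0.49, lay above both other groups. Those of the remaining C26-CHO mice lay within the CT range.

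Promoter sequences are shown for 3 sterol genes that rose, for Glul and, as a gene of the acute phase, for Fgb. They come from RefSeq (build GRCm38.p6), run 5′ to 3′ on the gene's strand from 250 bases before the first transcribed base and are 300 bases long. The windows are chr13:119690101-119690400 (plus strand) for Hmgcs1, chr15:82147019-82147318 (plus) for Srebf2, chr5:4104648-4104947 (minus) for Cyp51, chr1:153899679-153899978 (plus) for Glul and chr3:83049814-83050113 (minus) for Fgb. Capitals mark a motif match in Hmgcs1 and Fgb and the first transcribed base, by RefSeq, in the other 3. That base depends on the annotation. Relative to it, the GENCODE start lies at -88 bases in Srebf2, -49 in Cyp51 and 15 in Glul, with negative values upstream.
Hmgcs1: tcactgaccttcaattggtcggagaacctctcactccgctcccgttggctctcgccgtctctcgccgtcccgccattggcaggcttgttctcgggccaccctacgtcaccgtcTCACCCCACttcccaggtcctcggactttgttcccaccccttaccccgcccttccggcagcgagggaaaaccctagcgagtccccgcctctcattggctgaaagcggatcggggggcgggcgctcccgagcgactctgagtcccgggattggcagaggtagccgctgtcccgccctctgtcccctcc
Srebf2: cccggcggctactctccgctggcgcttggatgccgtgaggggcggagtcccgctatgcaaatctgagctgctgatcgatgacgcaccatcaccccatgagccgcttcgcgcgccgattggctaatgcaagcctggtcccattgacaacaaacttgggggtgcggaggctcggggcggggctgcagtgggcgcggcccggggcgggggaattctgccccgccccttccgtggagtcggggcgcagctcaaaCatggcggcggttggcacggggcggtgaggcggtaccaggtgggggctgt
Cyp51: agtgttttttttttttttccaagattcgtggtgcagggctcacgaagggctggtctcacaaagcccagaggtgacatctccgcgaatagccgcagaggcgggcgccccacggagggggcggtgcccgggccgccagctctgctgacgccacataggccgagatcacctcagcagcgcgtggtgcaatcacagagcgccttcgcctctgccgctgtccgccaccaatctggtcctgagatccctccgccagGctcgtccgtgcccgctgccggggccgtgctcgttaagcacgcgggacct
Glul: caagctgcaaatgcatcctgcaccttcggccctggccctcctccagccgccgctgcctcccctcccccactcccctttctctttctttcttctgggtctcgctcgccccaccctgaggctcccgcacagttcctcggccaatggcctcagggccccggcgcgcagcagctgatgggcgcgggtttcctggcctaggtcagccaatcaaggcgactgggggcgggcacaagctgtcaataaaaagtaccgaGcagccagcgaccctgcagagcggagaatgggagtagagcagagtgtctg
Fgb: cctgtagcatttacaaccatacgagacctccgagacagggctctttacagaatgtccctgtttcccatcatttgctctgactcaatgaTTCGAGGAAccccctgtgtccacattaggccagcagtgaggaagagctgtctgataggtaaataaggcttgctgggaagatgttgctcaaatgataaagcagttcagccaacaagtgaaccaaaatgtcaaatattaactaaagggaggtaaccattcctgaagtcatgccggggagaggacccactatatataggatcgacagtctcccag
Both strands were searched for TCACNCCAC, a form of the sterol regulatory element that SREBP proteins bind, and for TTCNNNGAA, the core that STAT proteins bind, which reads the same on both strands. The sterol motif was found in Hmgcs1, as TCACCCCAC from 137 bases before the start, the only match among 18 genes of the cholesterol list with a window (5.56%), against 388 of 27025 genes (1.44%). The RefSeq start of Hmgcs1 lies 28 bases before the most upstream start in GENCODE, so that distance depends on the annotation, whereas the starts of Fgb coincide. The same motif was found in 2 of 23 acute phase genes (8.7%), Itih3 and Saa3, a larger share than in the cholesterol list. The STAT motif was found in Fgb, as TTCGAGGAA from 162 bases before the start, and neither of these 2 windows held the other motif. It was found in 6 of 23 acute phase genes (26.1%) against 2582 of 27025 genes (9.55%), and in 1 of the 18 cholesterol genes, Ebp (5.56%). A match describes letters and is not evidence of binding, and these windows leave out more distant sequence.

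Bile acid synthesis remained below control. Of its 16 genes 12 fell, 1 rose and 5 were at control level, with a median difference of -0.48, and -0.52 without C26-CHO 1. Cyp7a1 had values of 2779 to 7281 in CT (median 5134), 53.3 to 6203 in C26-CHO (median 589) and 17.3 to 300 in C26 (median 53). C26-CHO 1 alone, at 6203, lay inside the CT range, and the other 7 lay between 53.3 and 897, below every CT liver. Cyp7a1 fell by 3.20 (SE 0.608, adjusted p = 6.14e-05), and by 3.69 without C26-CHO 1 (adjusted p = 6.15e-07), while C26 was at -6.37. Cyp8b1, the enzyme that directs synthesis to cholic acid, was 2880 to 7180 in CT (median 4819) and 849 to 5865 in C26-CHO (median 1703). Again C26-CHO 1 held the highest value and the other 7 lay at 849 to 2621, below every CT liver. It fell by 1.44 (SE 0.314, adjusted p = 0.000284), and by 1.69 without C26-CHO 1. Cyp27a1, the side-chain hydroxylase, was 6922 to 10097 in CT and 2690 to 7646 in C26-CHO and fell by 1.26 (adjusted p = 1.7e-07). The reductase gene Akr1c6 fell by 2.67 and Baat, which joins bile acids to taurine and glycine, by 0.76. Cyp7b1, of the alternative pathway, was 1817 to 7847 in CT and 944 to 4693 in C26-CHO, a difference of -0.68 (adjusted p = 0.0876) that was called without CT 2 (-0.86, adjusted p = 0.0287) and with array weights. Acox2, a peroxisomal side-chain oxidase, rose by 0.26 (adjusted p = 0.0374), a call lost without C26-CHO 3, 4 or 6 or CT 5, 7 or 8 (adjusted p from 0.053 to 0.1).

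Bile acid transport was lower still. Of 12 transport genes 10 fell and 2 rose, none was at control level, and the median difference was -1.23, or -1.24 without C26-CHO 1. Slc10a1 (NTCP), the main uptake carrier at the blood side, was 10672 to 16406 in CT (median 12752) and 3983 to 6963 in C26-CHO (median 4585). The groups did not overlap, C26-CHO 1 being nearest to control, and the difference was -1.45 (SE 0.102, adjusted p = 4.79e-12). Slco1a1 was 10388 to 18673 in CT and 75.3 to 1618 in C26-CHO and fell by 6.21 (adjusted p = 7.23e-11), while it fell by 6.64 without C26-CHO 1. Slco1a4 fell by 3.73. Abcb11 (BSEP), the exporter into bile, was 7746 to 14819 in CT and 4920 to 9737 in C26-CHO and fell by 0.94 (adjusted p = 1.63e-06). The 2 that rose were Atp8b1, a lipid flippase of the canalicular membrane, by 1.29, and Abcc4, an exporter to the blood side, by 0.67.

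The 9 genes of bile acid sensing had a median difference of 0.05, with 3 higher, 3 lower and 3 at control level. Nr1h4 (FXR), the bile acid receptor, was 2142 to 2942 in CT (median 2697) and 1638 to 3146 in C26-CHO (median 2322). Its difference was -0.19 (adjusted p = 0.109). Leaving out C26-CHO 1 made it -0.26 (adjusted p = 0.0202), so that library decided the call. Nr0b2 (SHP), a repressor induced by FXR, was 445 to 1264 in CT and 272 to 659 in C26-CHO and fell by 0.71 (adjusted p = 0.00371). Klb, a co-receptor for the gut hormone FGF15, fell by 0.70 and Nr5a2, an activator of Cyp7a1 and Cyp8b1, rose by 0.73.

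**Figure D3:**
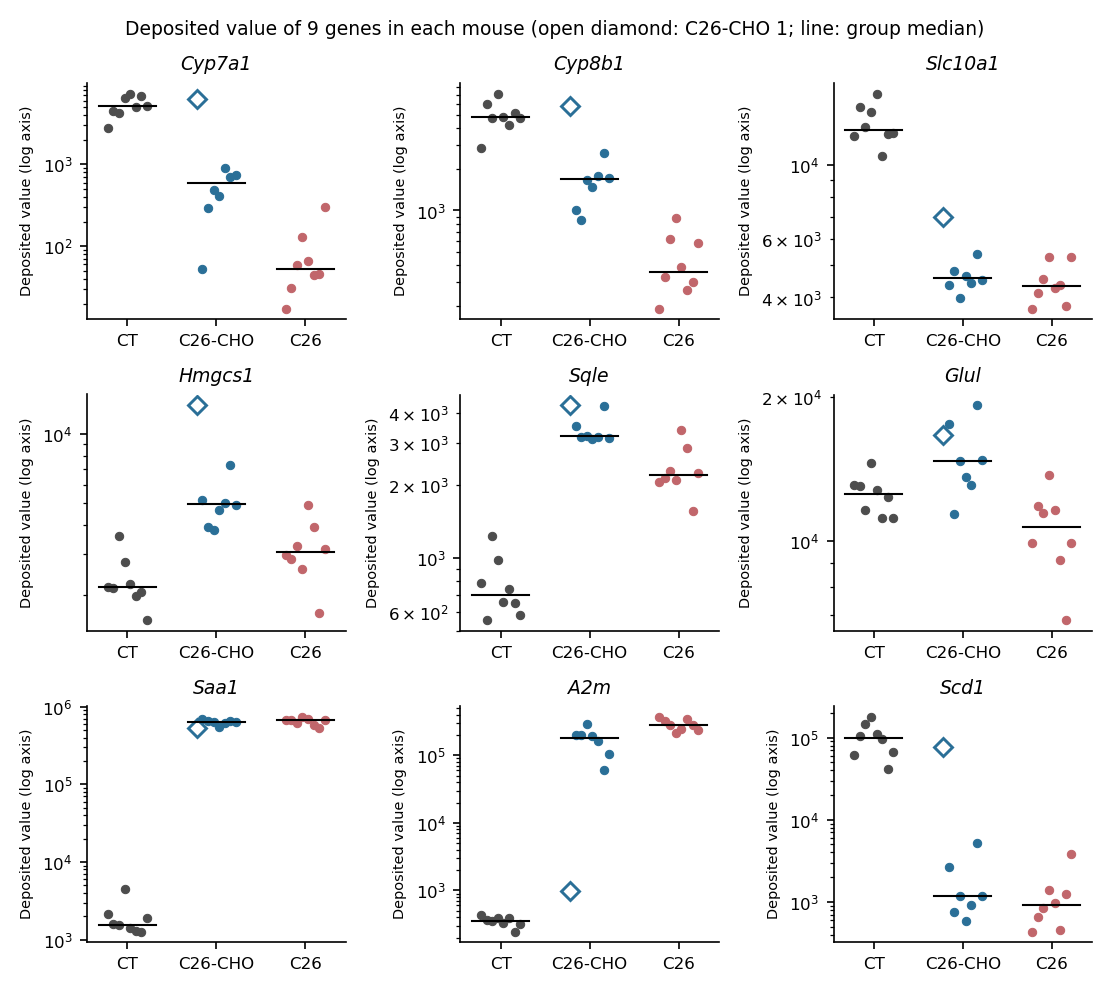
Deposited value of 9 genes in each liver on a log axis, with the group median as a line and C26-CHO 1 as an open diamond. For Cyp7a1, Cyp8b1 and Scd1 the diamond lies inside the CT range while the other 7 C26-CHO livers lie below it, for A2m it lies near control, and for Saa1 and Slc10a1 it lies outside the CT range with the others.

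Acute phase proteins stayed changed. Of 30 genes 28 rose, 1 fell and 1 was at control level, and the median difference was 4.14, or 4.24 without C26-CHO 1, beside 4.33 in C26. Saa1, a serum amyloid A protein carried on HDL, was 1263 to 4471 in CT (median 1554) and 530464 to 693207 in C26-CHO (median 637238). Every C26-CHO liver lay far above every CT liver, with C26-CHO 1 lowest, and the difference was 8.45 (SE 0.173, adjusted p = 3.13e-23). Saa2, which is nearly identical in sequence, differed by 8.96, so reads may be split between the 2. Orm2, of a family of close copies, rose by 7.42, the iron-siderophore binder Lcn2 by 8.65, the pentraxin Apcs by 4.37 and the fibrinogen chain Fgb by 3.16. A2m, a broad protease inhibitor, was 245 to 435 in CT, 967 in C26-CHO 1 and 60842 to 292249 in the other 7. It rose by 7.89 (SE 0.713, adjusted p = 4.99e-10), and by 8.81 without C26-CHO 1. Hamp, the iron hormone hepcidin, was the gene that fell, from 7767 to 14991 in CT to 3421 to 7573 in C26-CHO, by 1.01 (adjusted p = 7.36e-06).

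In the IL-6 and STAT3 list 11 of 17 genes rose and 2 fell, with a median of 0.52. The counts were 13 and 2 without C26-CHO 1, with a median of 0.58. Socs3, the feedback inhibitor of STAT3, was 83.4 to 193 in CT and 3905 to 6225 in C26-CHO, a difference of 5.41 (adjusted p = 4.99e-21). Stat3 rose by 1.79 and the oncostatin M receptor gene Osmr by 3.76, while Lifr, the receptor for leukaemia inhibitory factor, fell by 1.55. Complement and coagulation showed 16 of 30 genes higher, 5 lower and 11 at control level. C3, the central complement protein, was 131649 to 173811 in CT and 499242 to 807085 in C26-CHO and rose by 2.28. Other large rises were Nnmt, which methylates nicotinamide, at 24.7 to 121 in CT and 3089 to 14531 in C26-CHO (7.29), and Igdcc4, an immunoglobulin-domain membrane protein, at 1.85 to 9.48 and 207 to 2056 (7.51). Prtn3, a serine protease known from neutrophil granules, was 0.883 to 5.84 in CT and 510 to 1460 in C26-CHO and rose by 7.31.

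Stress genes of protein folding and amino acid supply were also higher. Of 19 genes of the ER chaperone list 16 rose and 2 fell, with a median of 1.16. Pdia4, a disulfide isomerase, was 2778 to 4726 in CT and 7432 to 13533 in C26-CHO and rose by 1.66, and Calr, calreticulin, rose by 1.19. Herpud1, of ER-associated degradation, fell by 0.92, and the sensor gene Ern1 fell by 0.30, a call lost under quantile normalization (-0.18, adjusted p = 0.0509). Of 16 genes of the ATF4 list 13 rose and 1 fell, with a median of 0.83. Asns, asparagine synthetase, was 3.53 to 15.7 in CT and 50.1 to 470 in C26-CHO and rose by 4.93, and Chac1, which degrades glutathione, rose by 2.67. Shmt2, the mitochondrial serine enzyme, fell by 0.87.

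Drug and hormone metabolism stayed far below control. Of 22 P450 genes 18 fell and 1 rose, with a median of -2.55, or -2.74 without C26-CHO 1. Cyp3a11, the main drug-oxidising P450 of its family in mouse liver, was 37872 to 57138 in CT (median 50486), 4192 in C26-CHO 1 and 33.1 to 310 in the other 7. It fell by 8.69 (SE 0.756, adjusted p = 2.51e-10), and by 9.43 without C26-CHO 1. Cyp3a13 went the other way, from 559 to 1108 in CT to 1754 to 3499 in C26-CHO, a rise of 2.00 (adjusted p = 8.38e-13). Of 20 conjugation genes 19 fell and 1 rose, with a median of -2.40. Ugt2b1, a glucuronosyltransferase, fell by 3.64, and Sult1a1, a sulfotransferase, rose by 0.45. Gsta2, a glutathione transferase, was 435 to 1012 in CT and 0 to 30.5 in C26-CHO, and its close copy Gsta1 was 108 to 248 and 0 to 4.7. Members of the P450, Ugt, Gsta and carboxylesterase families share sequence, and their reads may be split between copies.

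Sex-biased liver genes, whose levels depend on the pattern of growth hormone release, were lower in 16 of 20 genes and higher in 1, with a median of -2.25. Hsd3b5, a steroid enzyme of male liver, was 4485 to 7263 in CT, 1355 in C26-CHO 1 and 8.3 to 53.8 in the other 7, and fell by 7.29, or fell by 8.04 without C26-CHO 1 (adjusted p = 5.44e-13). Mup3, a urinary pheromone carrier of a family of near-identical copies, fell by 2.34, and P450 gene Cyp2d9 by 1.98. Cux2, a factor of female liver, was 7.05 to 45 in CT and 26.2 to 58.2 in C26-CHO and rose by 1.15 (adjusted p = 0.00136). Ghr, the growth hormone receptor, fell by 1.51 and Igfbp2, an IGF carrier, fell by 2.69. Both fell less than in C26, at -1.98 and -3.92, and both differed between the tumour groups (0.46 and 1.23, adjusted p = 0.0263 and 0.00558). Among the largest falls, Car3, a carbonic anhydrase of hepatocytes and adipocytes, fell by 8.21, the carboxylesterase Ces1f fell by 6.50 and the amine methyltransferase Inmt fell by 6.45. Without C26-CHO 1, Car3 fell by 8.93 and Ces1f fell by 7.19.

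Fat synthesis was lower in 17 of 18 genes and higher in 1, with a median of -1.45, or -1.54 without C26-CHO 1. Scd1, which makes oleate from stearate, was 40922 to 179181 in CT, 76717 in C26-CHO 1 and 579 to 5239 in the other 7. Thus 7 livers lay below every CT liver and 1 lay in the middle of the CT range, and the difference was -5.36 (SE 0.688, adjusted p = 2.17e-07), or -6.09 without C26-CHO 1. Its low paralog Scd3 fell by 5.25, and fell by 5.95 without C26-CHO 1. Thrsp, a lipogenic regulator, fell by 4.32 and Dgat2, which completes triglycerides, by 1.28. Insig2 rose by 0.75. Of 21 genes of fatty acid oxidation and ketone synthesis 14 fell and 4 rose, with a median of -0.52. The peroxisomal thiolase Acaa1b fell by 3.11. The omega-hydroxylase Cyp4a14 rose by 1.98 (adjusted p = 0.00137), with 3 of 8 livers above every CT liver, and the fasting hormone Fgf21 by 1.82 (adjusted p = 0.00153).

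Glucose and nitrogen metabolism moved in both directions. Of 15 glucose genes 6 rose and 7 fell. Pklr, liver pyruvate kinase, was 6585 to 14279 in CT and 736 to 3753 in C26-CHO and fell by 3.25. Glycogen synthase gene Gys2 fell by 1.71. Igfbp1, a fasting-induced IGF carrier, was 470 to 2256 in CT and 1025 to 6267 in C26-CHO and rose by 2.09, and Pdk4, which blocks pyruvate oxidation, rose by 0.82 (adjusted p = 0.0109). Of 20 genes of the urea cycle and amino acid breakdown 12 fell and 5 rose, with a median of -0.49. The counts were 12 and 7 without C26-CHO 1, with a median of -0.44. The urea cycle gene Otc fell by 1.52. Here C26-CHO 1 was the liver furthest from control, with a list mean of -0.72 against -0.61 to -0.05 in the other 7. In the 16 periportal hepatocyte genes, of which 10 fell and 4 rose, it was again furthest, at -0.93 against -0.52 to -0.23. In the 15 tested pericentral genes, of which 8 fell and 4 rose, it was at 0.22 against -1.07 to -0.25.

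All 30 nuclear genes of the respiratory chain and ATP synthase fell, by 0.35 to 1.35, with a median of -0.77, or -0.81 without C26-CHO 1. Sdhb, of complex II, was 4034 to 4759 in CT and 1452 to 2263 in C26-CHO and fell by 1.35 (adjusted p = 2.65e-14). Uqcrc2, of complex III, was 4937 to 5298 in CT and 2456 to 3206 in C26-CHO and fell by 0.91. Reads from the mitochondrial genome made up 6.38% ± 1.04 (SD, n = 8) of the CT libraries and 3.52% ± 0.512 (SD, n = 8) of the C26-CHO libraries (exact permutation test, two-sided, adjusted p = 0.000466). Of 22 interferon-stimulated genes 15 fell and 2 rose, with a median of -0.97. Ifit1, an antiviral RNA sensor, was 130 to 291 in CT and 36.4 to 140 in C26-CHO and fell by 1.73, whereas Stat2, a factor of the same pathway, rose by 0.68. Of 17 clock genes 10 fell and 3 rose. Dbp fell by 2.56, and Nfil3, which binds the same DNA element, rose by 1.77.

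**Figure D4:**
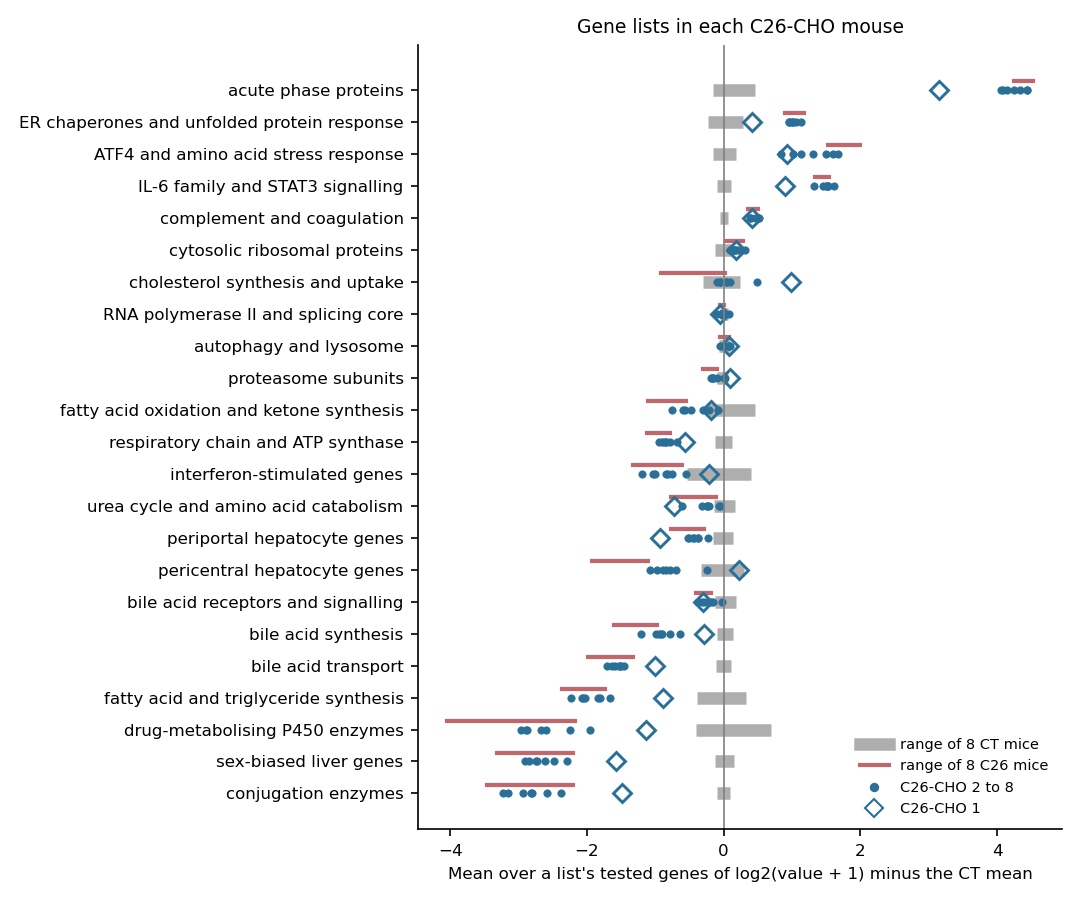
Mean over the tested genes of each list of log2(value + 1) minus the CT mean, for each C26-CHO liver (points), with the range of the CT livers as a grey bar and that of the C26 livers as a red line. C26-CHO 1 (open diamond) is nearer to control than the other 7 for the acute phase, P450, conjugation and fat synthesis lists and for bile acid synthesis and transport. It is further from control than the other 7 for the urea cycle and periportal lists, and beyond control at 0.99 for cholesterol synthesis.

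Lists of basic cell machinery held many genes at control level. Of 30 cytosolic ribosomal protein genes 27 were at control level, with and without C26-CHO 1, although 20 of the 30 rose by the test, since their differences were small and precise (median 0.16). Under quantile normalization that median was 0.32. Rplp0, of the ribosomal stalk, was outside the limit, at 3612 to 3961 in CT and 4722 to 5843 in C26-CHO, a difference of 0.47 (SE 0.0461) without overlap. Of 26 proteasome subunit genes 25 were at control level, 9 fell and 1 rose, with a median of -0.08 that quantile normalization turned to 0.02. Psmb7, the subunit outside the limit, fell by 0.40. Of 26 genes of RNA polymerase II and the spliceosome core 21 were at control level, 10 fell and 4 rose, with a median of 0.02. The splicing protein Hnrnpa1 rose by 0.49 and Prpf8, the core of the spliceosome, fell by 0.38. The share at control level over all genes was 42.4%.

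Several abundant plasma proteins had deposited values within the limit for control level. Serpina1a, an antitrypsin gene, was 276031 to 316938 in CT and 253946 to 292463 in C26-CHO, a difference of -0.09 (adjusted p = 0.305). Its copies Serpina1b and Serpina1c, with which it may share reads, were each at -0.13, Serpina3k was at -0.13 and Apoa1, the main protein of HDL, was at -0.15 (adjusted p = 0.0821). Apoa1 was called without C26-CHO 7 or 8 or CT 3 (-0.18, adjusted p from 0.0421 to 0.046), and both DESeq2 and a filter at a mean of 100 called Apoa1, Serpina1b and Serpina1c as lower. These 5 genes and Gc, the vitamin D carrier, had the highest mean values among genes at control level, and their place there rested on the scaling. Quantile normalization put Apoa1 at -1.21, Serpina1a at -1.30, Serpina1b at -1.50, Serpina1c at -1.55 and Serpina3k at -1.34. Gc rose by 0.32 (adjusted p = 2.93e-05) as deposited and was at -0.25 under quantile normalization, and Ahsg, fetuin A, rose by 0.47 and was at -0.47 there. The same scaling left the median of all genes at -0.02. In share of reads, the 10 most abundant genes of a library took 27.4% in C26-CHO and 16% in CT. Albumin did not keep its level: Alb was 916952 to 1141825 in CT and 207266 to 393000 in C26-CHO and fell by 1.84 (adjusted p = 2.38e-12), and the thyroid hormone carrier Ttr fell by 2.28.

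A set of 16 genes was at control level in C26-CHO, was called in C26 against CT and differed between the 2 tumour groups. Without C26-CHO 1 the set held 7, all in the set of all libraries. It was 0 without C26-CHO 7, 6 without C26-CHO 6, 9 without C26-CHO 8, 27 without C26-CHO 2, 32 without C26-CHO 4 and 56 without C26-CHO 3. Of the genes named below, Nfs1, Map4k3, Taf15 and Gas5 left the set without C26-CHO 1. Their calls against C26 were lost (adjusted p from 0.0697 to 0.099). Aqp9 left it as well, by its interval against CT. Pparg, a nuclear receptor of fat storage, was 75.6 to 157 in CT (median 109), 71.3 to 190 in C26-CHO (median 102) and 51.3 to 75.3 in C26 (median 54.8). Its difference was -0.03 (adjusted p = 0.874) in C26-CHO, where its sign turned in single leave-outs and in edgeR, and -0.87 in C26. Slc1a2, a glutamate carrier of pericentral hepatocytes, was at -0.25 in C26-CHO and -0.81 in C26. Its call against CT (adjusted p = 0.0465) was lost without C26-CHO 1, 2, 4, 5 or 8 or CT 3, 4, 6, 7 or 8 (adjusted p from 0.0527 to 0.101), under quantile normalization (-0.14) and TMM scaling, without a filter, with array weights and with edgeR. Aqp9, the glycerol channel, was 6590 to 8619 in CT, 4794 to 9591 in C26-CHO and 3833 to 4969 in C26. The 9591 was C26-CHO 1, the other 7 C26-CHO livers were at 4794 to 6913, and 6 of 8 lay below every CT liver. Aqp9 fell by 0.28 in C26-CHO (adjusted p = 0.015), beside -0.75 in C26. Under quantile normalization the difference was -0.05 and not called. Leaving out C26-CHO 1 made it -0.38 (adjusted p = 9.65e-05), with an interval of -0.53 to -0.22 that passed the limit for control level. Adhfe1, a hydroxyacid dehydrogenase, was at -0.21 and -0.57, and its C26-CHO call was lost under quantile normalization (-0.15). The cysteine desulfurase gene Nfs1 was at -0.30 and -0.51. It was 742 to 839 in CT and 559 to 731 in C26-CHO, so all 8 C26-CHO livers lay below every CT liver, and it was called (adjusted p = 7.64e-06) although inside the limit. On the high side, Gstp3, a glutathione transferase, was at 0.11 in C26-CHO and 0.61 in C26, the kinase gene Map4k3 at 0.18 and 0.68, the RNA-binding factor Taf15 at 0.31 and 0.57 and the non-coding RNA Gas5 at 0.27 and 0.58. Taf15 and Gas5 were still called against CT in C26-CHO (adjusted p = 7.97e-05 and 0.0015), with 7 and 4 of 8 livers above every CT liver.

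Markers of other cell types are counted beside all tested genes, of which 30.7% were higher and 31.4% lower. A list with counts near these shares does not stand apart from all genes. Of 14 Kupffer cell and macrophage markers 13 rose (12 without C26-CHO 1) and none fell, with a median of 0.87. Their summed value was 6381 to 9114 in CT and 10418 to 18389 in C26-CHO. Cd5l, of resident macrophages, rose by 1.37 and Itgam, of myeloid cells, by 2.53. The sum over all 14 neutrophil markers, of which 5 passed the filter on low values, was 83.4 to 122 in CT and 272 to 645 in C26-CHO. S100a8 was 2.87 to 10.6 in CT and 23.5 to 116 in C26-CHO and rose by 3.07. Of 9 bile duct markers 7 were tested, 3 rose, none fell and 4 were not called, with a median of 0.23. The sums over all 9 were 511 to 853 in CT and 2571 to 9845 in C26-CHO. Spp1, osteopontin, was already 216 to 373 in CT and rose by 3.72, so these sums lean on that gene. The progenitor factor Sox9 rose by 3.27. Of 14 stellate cell and fibroblast markers 6 rose, 1 fell and 7 were not called, with a median of 0.16, and Timp1 rose by 3.12. Sinusoidal endothelium showed 7 of 13 higher and 3 lower. The sum over 12 T and NK cell markers was 69.9 to 207 in CT and 32.3 to 125 in C26-CHO. B and plasma cell markers summed to 3198 to 3829 in CT and 5539 to 11416 in C26-CHO, although 1 rose and 3 fell of the 7 tested (10 in the list). Erythroid markers (6 tested of 10) rose in 4 genes and fell in 1, with overlapping sums of 11403 to 23504 and 11423 to 29824.

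Single livers stood out in markers of neighbouring tissue. The mean of the 3 tested of 10 pancreatic acinar markers, relative to CT, was 5.38 in C26-CHO 4 and 1.30 in C26-CHO 8, against -0.89 to -0.12 in the other 6 and -0.47 to 1.07 in CT. The mean of the 6 tested of 8 adipocyte markers was 2.99 in CT 7, 1.98 in CT 2 and 1.23 in CT 4, against -1.41 to -1.04 in the other CT livers and -1.17 to 0.96 in the C26-CHO livers other than C26-CHO 8, which was the highest of that group. Of the 3 tested of 9 intestinal markers 2 fell. No marker present in the table was at 0 in every library. The part of these cells and tissues in the gene differences above was not tested.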

How the data were processed

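Livers of 24 mice were sequenced, 8 per group, and the labels name each library as a mouse of its group. The deposited values are normalised read counts, a signal that the authors obtained by dividing the reads of each gene by a size factor per library. The submitters' processing notes list bcl2fastq 2.17, FastQC, Trimmomatic 0.38, STAR 2.6.1d, DESeq2 1.22.2 and the build GRCm38. For the counting tool, the annotation, the strand setting and the extraction dates nothing is stated in the sources used here, so reads of overlapping genes on opposite strands, and of near-identical copies, may be mixed. Division by the smallest step of each library gave whole reads for 100% of the values (within 0.001), from which the depth of each library was taken. Library totals were 19.9 to 30.5 M reads.

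The main test was limma's moderated linear model (version 3.58.1, with a trend of the spread over the mean level, under R 4.3.3) on log2(value + 1), with the 3 groups in 1 fit and no covariates, over 14040 genes with a mean of at least 10. Confidence intervals are at 95%. Samples were grouped by their labels. A symbol was found for 21959 of 22392 gene identifiers. On the recovered reads edgeR 4.0.16 (quasi-likelihood test) called 8786 genes and DESeq2 1.42.0 called 8806. Further alternatives left out each library, fitted 16 libraries, blocked on the replicate number and changed the pseudocount, the filter, the scaling (quantile, TMM) and the library weights. The test was tried on simulated data before use. Same-numbered CT and C26-CHO libraries were not paired by the labels, and their deviations correlated by -0.0195 to 0.254.

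Named genes were taken by rule: the 8 largest rises and 8 largest falls with a mean of at least 50, up to 10 genes past control and up to 10 called against both groups, the 10 genes returned to control level with the largest C26 difference and the 6 at control level with the highest mean (all with a mean of at least 50 and a full gene symbol), up to 3 genes per list with the smallest p and those called against the list, 16 genes of bile acid, cholesterol and acute phase metabolism, and the 6 genes most moved by C26-CHO 1. Fam25c, Dnaic1, Hacd3, Fbp1, Slc22a26, Gm15638 and Glns-ps1 fell outside those limits and were chosen after their values were seen. The comparison, the gene lists and the thresholds were chosen with earlier results of these data known.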

Additional observations from a re-analysis of the deposited data

Results flagged for a closer look

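A value was set out here where 1 liver lay far from the other 7 of its group, its gap to the nearest exceeding Dixon's limit at the 95% level as a share of the group's range (genes on the log2 scale). Over 258 groups of 8 (126 genes and 3 library measures, in CT and in C26-CHO), 33 held such a liver, and chance alone gives about 1 in 20. C26-CHO 1 was that liver in 27 of the 33, a CT liver in 6 and another C26-CHO liver in 0. These counts are no chance test, since the genes share the same livers and 6 of them (A2m, Car3, Cyp3a11, Hsd3b5, Scd1 and Scd3) were named because C26-CHO 1 moved them most. The share of genes inside the control range was 51.2% in C26-CHO 1 and 39% to 44.1% in the others, and its first principal component was 11.08 against 47.23 to 73.51.

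In C26-CHO 1 some genes that rise in the group were low. The acute phase genes were Lcn2 at 21712 (others 45071 to 72543), A2m at 967 (others 60842 to 292249), Fgb at 466216 (others 689032 to 793457) and C3 at 499242 (others 699795 to 807085). Osmr was at 355 (others 681 to 972), Asns at 50.1 (others 181 to 470), Pdia4 at 7432 (others 11191 to 13533) and Igfbp1 at 1025 (others 4049 to 6267). Also low were Nnmt at 3089 (others 8342 to 14531), Igdcc4 at 207 (others 944 to 2056), Cyp3a13 at 1754 (others 2702 to 3499) and Sult1a1 at 3411 (others 5679 to 7771).

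Genes that fall in the group were high in C26-CHO 1. Scd1 was at 76717 (others 579 to 5239), its paralog Scd3 at 193 (others 1 to 6.17), Pklr at 3753 (others 736 to 1105) and Sc5d at 5806 (others 2268 to 2978). Cyp3a11 was at 4192 (others 33.1 to 310), Ugt2b1 at 3809 (others 907 to 1477), Gsta1 at 4.7 (others 0 to 1.19) and Slco1a4 at 98.6 (others 33.8 to 53.5). Car3 was at 9793 (others 94 to 416), Hsd3b5 at 1355 (others 8.3 to 53.8), Lifr at 4153 (others 2560 to 3156), Sdhb at 2263 (others 1452 to 1788) and Dbp at 1462 (others 247 to 433).

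The CT livers that lay apart were CT 4 for Saa1 at 4471 (others 1263 to 2120) and Fam25c at 319 (others 115 to 179), and CT 2 for Uqcrc2 at 5298 (others 4937 to 5099). CT 1 was high for Gas5 at 589 (others 434 to 490), CT 5 low for Prtn3 at 0.883 (others 2.77 to 5.84) and CT 6 low for Spp1 at 216 (others 300 to 373).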

How the results depend on the processing

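Of 126 genes named in the report, 108 kept direction and call in C26-CHO against CT in every setting run, and 18 did not. Calls against C26 are not in this count. Among them, those of Idi1, Tmem97, Fdft1, Slc22a26, Lss, Fam25c, Nfs1, Map4k3, Taf15 and Gas5 were lost without C26-CHO 1. The cause of the changes was not tested. The number of genes called ran from 8408 to 8926 as single libraries were left out, that of genes called at least 2-fold from 1923 to 2171, at control level from 5685 to 5919 and staying changed from 7862 to 8321. Smaller sets were unstable when a library was left out: genes past control (0 to 3), genes called against both CT and C26 (4 to 39) and genes returned to control level (0 to 56). With the replicate number as a block, 9050 genes were called and 2 passed control, and the block changed no call of a named gene against CT. No gene passed control without a filter, under quantile normalization, with array weights or with 2-fold differences in both contrasts (0 in each), and 1878 genes then stayed changed by 2-fold. Quantile normalization gave 25 returned genes, a mean of at least 100 gave 1171 genes with 2-fold differences among fewer genes, and limits of 0.25 and 1 gave 1735 and 10649 genes at control level. Signs turned under quantile normalization for Gc (-0.25), Ahsg (-0.47) and the proteasome median (0.02). Pparg, near 0, ran from -0.15 (without C26-CHO 1) to 0.05 (without C26-CHO 6), with 0.02, 0.04 and 0.03 without C26-CHO 2, CT 2 and CT 7, and was 0.00 in edgeR. The higher share of calls was 49.4% as reported, 48.6% under quantile normalization and 51.8% under TMM. At these depths the median standard error was 0.188 for genes with a mean under 100 and 0.0734 for means of at least 1000, and how much of it is counting error was not tested.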
